A study of Mus musculus with 8 samples.

Results

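The interleukin-1 and interleukin-36 ligand genes Il1f6, Il1f9, Il33, Il1a, Il1b, Il1rn and Il18 were described in macrophages that do or do not express a reporter of the cytokine gene Il19. They were taken by symbol and make up 7 of the 17823 genes of the deposited table. The genes were selected on their measured counts in these same libraries, with their difference between the groups already known, so that difference is given below as a description with no test. The tdT positive group (Il19-tdT positive) has 4 libraries and the tdT negative group (Il19-tdT negative) has 4, numbered as replicates 1 to 4 in both. Both groups are bone-marrow-derived macrophages of strain C57BL/6, grown with 20 ng of recombinant murine M-CSF for 7 days, and both received 1 µg/ml of lipopolysaccharide (LPS, from Escherichia coli O111:B4), a bacterial outer-membrane component sensed through the receptor Tlr4. The series therefore holds no unstimulated cells, and how the tdT positive and tdT negative cells were separated, the age of the mice and the design of the reporter are not stated in the labels used here.

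Il1f6 and Il1f9 encode IL-36α and IL-36γ, which signal through the receptor chain Il1rl2 together with the shared chain Il1rap and are best known from epithelia and myeloid cells of inflamed skin. Il1a and Il1b encode the agonists of the receptor Il1r1, Il1rn encodes the antagonist that occupies the same receptor without signalling, Il33 encodes a nuclear cytokine that signals through Il1rl1 (ST2), and Il18 encodes an interferon-γ-inducing cytokine. LPS induces transcription of Il1a and Il1b in macrophages, and IL-1β and IL-18 are made as precursors that caspase-1 cleaves in inflammasomes, so a messenger RNA level does not give the amount of active cytokine.

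The 8 libraries hold 49850537 to 58516454 counts over genes, and levels are given as CPM, the counts of a gene per 1000000 counts of its library after TMM scaling (by a trimmed mean of M values). At this depth 3 counts equal 0.0490 to 0.0696 CPM, depending on the library. The gene behind the reporter had 183, 145, 177 and 234 CPM of Il19 in the tdT positive libraries of replicates 1 to 4, against 10.4, 9.17, 17.0 and 11.3 CPM in the tdT negative libraries, a 15.4-fold difference of the means, which matches the labels of all 8 libraries. Macrophage genes were abundant in both groups: Lyz2, which encodes lysozyme, averaged 5663 ± 647 CPM over the tdT positive and 6210 ± 2536 CPM over the tdT negative libraries (SD, n = 4 each), and Adgre1, which encodes F4/80, averaged 3596 ± 654 CPM over the tdT positive and 3973 ± 919 CPM over the tdT negative libraries. In bulk RNA, fewer cells of a type and less RNA per cell cannot be told apart.

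In the GRCm38 annotation, 5 of the 7 genes lie on chromosome 2. Il1f9 (chr2:24186476-24193568, plus strand), Il1f6 (chr2:24215418-24225702, plus) and Il1rn (chr2:24336853-24351494, plus) span 165 kb together, with a gap of 21.9 kb between Il1f9 and Il1f6. Il1a (chr2:129299610-129309972, minus) and Il1b (chr2:129364570-129371139, minus) lie 105 Mb further along the chromosome, 54.6 kb apart. Il18 is at chr9:50554827-50581840 and Il33 at chr19:29925114-29960718, both on the plus strand. No pair of the 7 genes (0 of 21 pairs) shares an identical run of 25 bases in the annotated transcripts, so a stretch of that length belongs to only 1 of them.

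The promoters of Il1f9, Il1a and Il1b are shown because the first is of a gene that was higher in every tdT positive library, while the other 2 are of the agonist genes, which differed between replicate numbers more than between groups. Each is the 250 bases before the RefSeq transcription start in GRCm38.p6, written 5′ to 3′ on the strand of the gene, at chr2:24186226-24186475 (plus) for Il1f9, chr2:129309973-129310222 (minus) for Il1a and chr2:129371140-129371389 (minus) for Il1b. Capitals mark matches to the motifs searched, on both strands.
Il1f9: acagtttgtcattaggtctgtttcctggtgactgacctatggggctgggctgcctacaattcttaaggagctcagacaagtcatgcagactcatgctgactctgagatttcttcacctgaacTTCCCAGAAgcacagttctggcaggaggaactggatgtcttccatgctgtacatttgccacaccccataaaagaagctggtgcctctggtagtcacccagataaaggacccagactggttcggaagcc
Il1a: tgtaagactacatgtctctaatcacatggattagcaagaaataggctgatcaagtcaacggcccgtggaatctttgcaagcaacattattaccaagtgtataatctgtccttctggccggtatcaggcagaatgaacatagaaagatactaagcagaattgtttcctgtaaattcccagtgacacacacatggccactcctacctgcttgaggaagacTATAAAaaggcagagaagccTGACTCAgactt
Il1b: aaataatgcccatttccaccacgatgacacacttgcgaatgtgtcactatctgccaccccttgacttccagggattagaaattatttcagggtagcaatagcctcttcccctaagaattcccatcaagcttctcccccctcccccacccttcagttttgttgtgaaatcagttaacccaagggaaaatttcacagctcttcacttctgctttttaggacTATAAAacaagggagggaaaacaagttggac
The Il1f9 window holds a STAT motif (TTCNNNGAA) from base -128 to -120, counted back from the start. The Il1a window holds a TATA box (TATAAA) from -32 to -27 and an AP-1 motif (TGANTCA) from -12 to -6, and the Il1b window holds a TATA box from -31 to -26. Over 32851 promoter windows of this length, 7.02% hold the STAT motif, 12.4% the TATA box, 6.75% the AP-1 motif, 9.56% the C/EBP motif TTGCNNAA and 3.90% the NF-kB consensus. No window of the 6 genes matched in the RefSeq table, which are all but Il1f6, held the NF-kB consensus as searched. Among the others, the first start of Il1rn had an AP-1 motif from -141 to -135, and its later starts had no match. The first start of Il33 had a TATA box from -203 to -198, and its second start had a TATA box from -29 to -24 and a C/EBP motif from -85 to -78. The Il18 window had a TATA box on the opposite strand from -175 to -170. No match overlapped another, and a match describes these letters only.

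Both IL-36 ligand genes were higher in tdT positive macrophages, with every tdT positive library above every tdT negative library. Il1f6 had 47.7, 56.0, 49.7 and 96.1 CPM in tdT positive libraries 1 to 4, against 20.7, 25.5, 27.8 and 23.4 CPM in tdT negative libraries 1 to 4. The lowest tdT positive library thus lay above the highest tdT negative one, and replicate 4 stood above the other tdT positive libraries. The means were 62.4 ± 22.7 CPM over the tdT positive and 24.4 ± 3.01 CPM over the tdT negative libraries (SD, n = 4 each), and within a replicate number the ratio lay between 1.79 and 4.10. The fitted log2 fold change, tdT positive over tdT negative, was 1.36 (SE 0.23), and 1.30 (SE 0.18) with the replicate number as a block.

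Il1f9 had 73.9, 108, 110 and 121 CPM in tdT positive libraries 1 to 4, against 36.4, 55.5, 58.3 and 61.8 CPM in tdT negative libraries 1 to 4. Replicate 1 was lowest in both groups, and the groups again did not overlap. The means were 103 ± 20.3 CPM over the tdT positive and 53.0 ± 11.4 CPM over the tdT negative libraries (SD, n = 4 each). The ratio was nearly the same in every replicate number, between 1.88 and 2.03, and the standard error of its log2 fold change was 0.20 in the fit without the replicate number (0.96) and 0.05 with it (0.97). Il1f6, by contrast, had its largest ratio in replicate 4 and its smallest in replicate 3.

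Il33 was expressed at a far lower level. It had 2.51, 1.50, 4.06 and 0.752 CPM in tdT positive libraries 1 to 4, against 1.12, 0.991, 2.00 and 0.524 CPM in tdT negative libraries 1 to 4, which rest on 131, 87, 175 and 46 counts in tdT positive and 60, 59, 111 and 31 counts in tdT negative libraries. Each tdT positive library was above the tdT negative library of its number, by 1.44 to 2.25 times, but the groups overlapped. The means were 2.20 ± 1.43 CPM over the tdT positive and 1.16 ± 0.616 CPM over the tdT negative libraries (SD, n = 4 each), and the log2 fold change was 0.92 (SE 0.55), or 0.85 (SE 0.18) with the block. Stromal cells are a known source of Il33 in tissues. Of the 14 stromal markers tested, 13 were lower in tdT positive libraries with the block and none was higher, where 7.81% of all 12610 genes tested were lower (edgeR, adjusted p under 0.05), and the summed level of the list was 67.8 to 172 CPM over the tdT positive and 285 to 2620 CPM over the tdT negative libraries. Their part in the Il33 values was not tested.

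**Figure D1:**
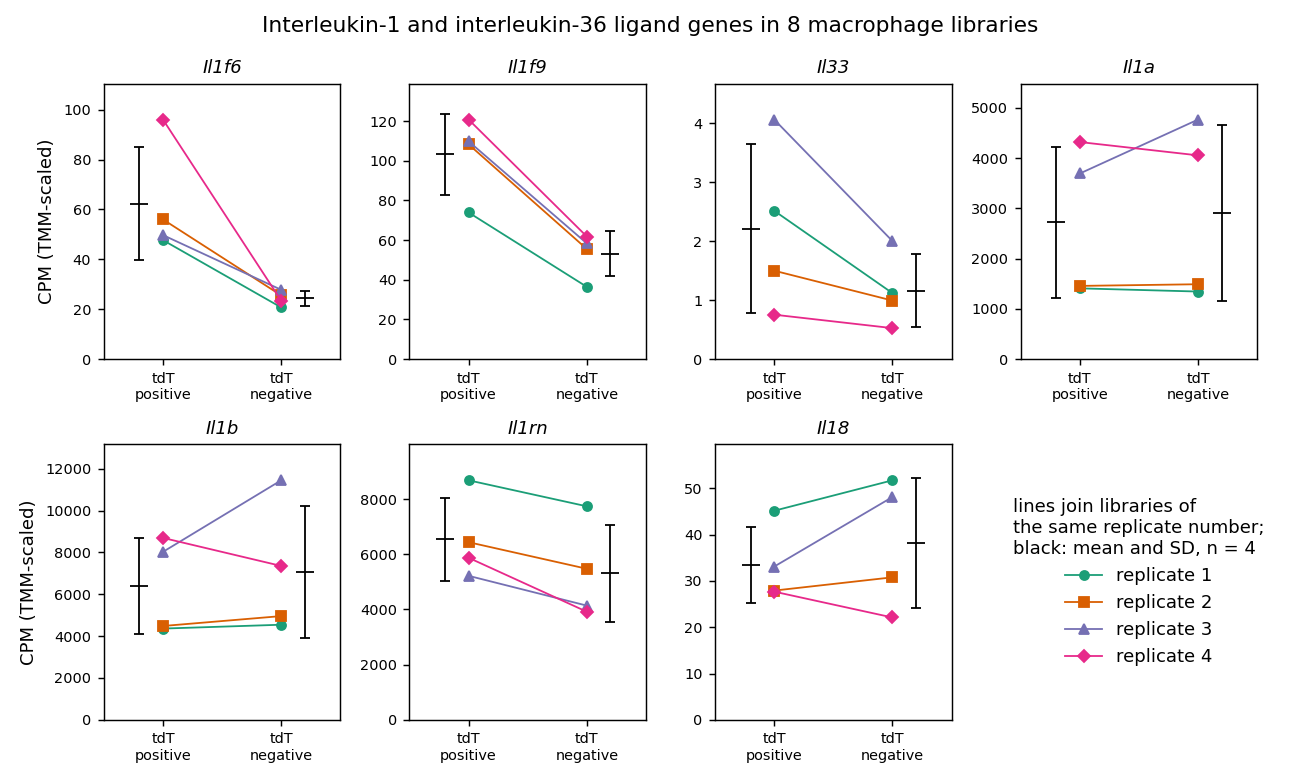
Level of each of the 7 ligand genes in the 8 libraries, in TMM-scaled CPM on a linear axis from 0, with the tdT positive libraries on the left and the tdT negative libraries on the right. Lines join libraries of the same replicate number, and the black marks give the mean and SD of each group (n = 4). Il1f6 and Il1f9 are higher at the tdT positive end of every line without overlap of the groups, Il33 and Il1rn likewise but with overlap, and Il1a, Il1b and Il18 have lines in both directions.

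The IL-1 agonist genes were among the most abundant transcripts of these cells and lay on both sides of equality. Il1a had 1407, 1455, 3693 and 4319 CPM in tdT positive libraries 1 to 4, against 1343, 1489, 4767 and 4054 CPM in tdT negative libraries 1 to 4. Replicates 3 and 4 were high and replicates 1 and 2 low in both groups, and the ratio of the groups within a number was 0.775 to 1.07. The means were 2719 ± 1509 CPM over the tdT positive and 2913 ± 1754 CPM over the tdT negative libraries (SD, n = 4 each), with a log2 fold change of -0.10 (SE 0.53), or -0.06 (SE 0.10) with the block.

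Il1b had 4359, 4483, 8027 and 8694 CPM in tdT positive libraries 1 to 4, against 4544, 4956, 11447 and 7353 CPM in tdT negative libraries 1 to 4. As for Il1a, replicates 3 and 4 were the high ones. The tdT positive library was the lower in replicates 1, 2 and 3 and the higher in replicate 4, with ratios of 0.701 to 1.18. Il1b averaged 6391 ± 2291 CPM over the tdT positive and 7075 ± 3167 CPM over the tdT negative libraries (SD, n = 4 each), with a log2 fold change of -0.15 (SE 0.36), or -0.12 (SE 0.13) with the block.

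The antagonist gene Il1rn had 8684, 6440, 5220 and 5874 CPM in tdT positive libraries 1 to 4, against 7741, 5476, 4140 and 3918 CPM in tdT negative libraries 1 to 4. Here replicates 1 and 2 were the high ones, the reverse of Il1a and Il1b. Each tdT positive library was above the tdT negative library of its number, by 1.12 to 1.50 times, while the groups overlapped. The means were 6555 ± 1505 CPM over the tdT positive and 5319 ± 1755 CPM over the tdT negative libraries (SD, n = 4 each), and the log2 fold change was 0.30 (SE 0.26), or 0.33 (SE 0.10) with the block.

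Il18 had 45.2, 27.9, 33.1 and 27.7 CPM in tdT positive libraries 1 to 4, against 51.8, 30.8, 48.2 and 22.1 CPM in tdT negative libraries 1 to 4. Like Il1b, it was lower in the tdT positive library of replicates 1, 2 and 3 and higher in that of replicate 4, with ratios of 0.688 to 1.25. It averaged 33.5 ± 8.19 CPM over the tdT positive and 38.2 ± 14.1 CPM over the tdT negative libraries (SD, n = 4 each), with a log2 fold change of -0.19 (SE 0.28), or -0.14 (SE 0.13) with the block. Il18bp, which encodes the soluble protein that binds IL-18, averaged 70.2 ± 14.4 CPM over the tdT positive and 67.4 ± 18.8 CPM over the tdT negative libraries, and its blocked log2 fold change of 0.08 did not pass (edgeR, Benjamini-Hochberg adjusted p = 0.586).

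**Figure D2:**
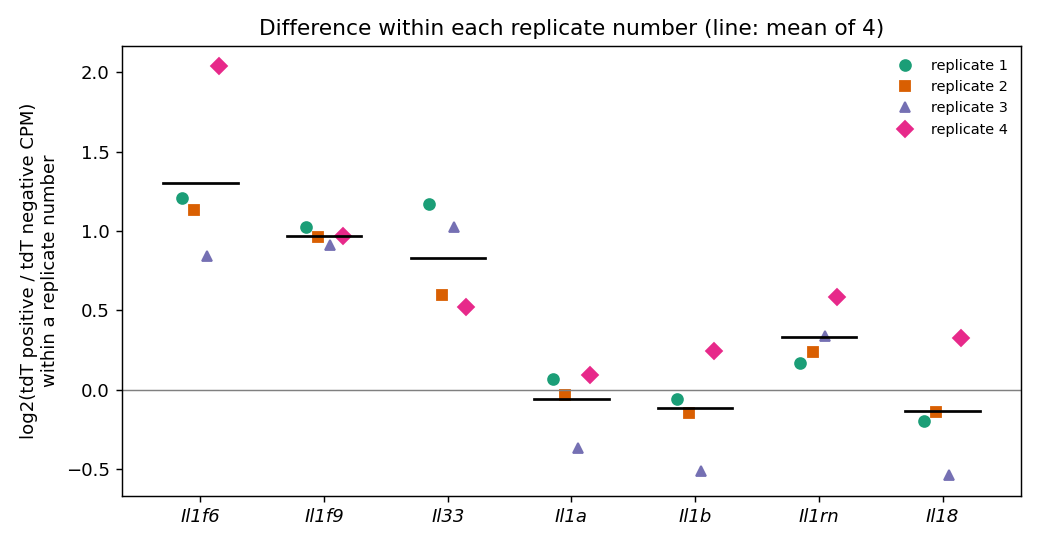
The log2 ratio of tdT positive to tdT negative CPM within each replicate number for the 7 ligand genes, with a black line at the mean of the 4 values. All 4 points of Il1f6, Il1f9, Il33 and Il1rn are above 0, the points of Il1f9 lie closest together, and replicate 3 is lowest for Il1a, Il1b and Il18.

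Levels of different genes were compared per kilobase of the deposited gene length. On that scale Il1b had a mean level of 4741 CPM per kb in tdT positive and 5248 CPM per kb in tdT negative libraries, Il1rn 2436 in tdT positive and 1976 in tdT negative libraries, and Il1a 1377 in tdT positive and 1476 in tdT negative libraries. The IL-36 ligand genes had far lower levels, 70.6 CPM per kb for Il1f6 in tdT positive against 27.6 in tdT negative libraries, and 62.7 for Il1f9 in tdT positive against 32.2 in tdT negative libraries. The mean of Il18 was 38.7 CPM per kb in tdT positive libraries, under both IL-36 ligand genes, and 44.1 in tdT negative libraries, above both. This order did not hold in every library. In tdT negative replicate 4 Il18 had 25.5, against 26.5 for Il1f6 and 37.5 for Il1f9. In tdT positive replicate 1 it had 52.2, against 44.9 for Il1f9. Il33 was lowest with 0.847 in tdT positive and 0.445 in tdT negative libraries. The means of Il1f6 and Il1f9 in tdT positive libraries differed by less than their spread (SD 25.8 and 12.3 CPM per kb), so their order there is not resolved.

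Every tdT positive library exceeded every tdT negative one for 2 of the 7 and for 5.46% of all genes tested, and lay below every tdT negative one for 0 of the 7 and 5.92% of all genes. A higher level in the tdT positive library of every replicate number was found for 4 of the 7 and 21.9% of all genes, and a lower one in every number for 0 of the 7 and 19.6%. Since this contrast chose the genes, nothing is read from these shares.

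Ratios of 2 genes within a library need no scaling and describe the make-up of the ligand messages. The genes compared were chosen with their differences between the groups known. A difference in their ratios thus restates that choice and is a description only. For every 1000 counts of Il1b there were 10.9, 12.5, 6.19 and 11.1 counts of Il1f6 in tdT positive libraries 1 to 4, against 4.56, 5.15, 2.43 and 3.18 in tdT negative libraries 1 to 4. The groups did not overlap, and within a number the ratio was 2.40 to 3.47 times higher in tdT positive libraries. Il1f9 had 17.0, 24.2, 13.7 and 13.9 counts per 1000 of Il1b in tdT positive libraries, against 8.01, 11.2, 5.09 and 8.40 in tdT negative libraries. These were 1.65 to 2.69 times higher within a number, again without overlap. Il33 had 0.576, 0.334, 0.506 and 0.0865 counts per 1000 of Il1b in tdT positive libraries, against 0.246, 0.200, 0.175 and 0.0712 in tdT negative libraries, higher in each number by 1.21 to 2.89 times but with overlap.

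The balance of antagonist to agonists was taken as Il1rn over the sum of Il1a and Il1b, each per kilobase. It was 0.818, 0.589, 0.248 and 0.253 in tdT positive libraries 1 to 4, against 0.710, 0.459, 0.141 and 0.194 in tdT negative libraries 1 to 4. Replicate numbers 1 and 2 had a higher ratio than 3 and 4 in both groups, and within each number the tdT positive library was the higher, by 1.15 to 1.76 times, with overlap of the groups. The ratios of Il1a and of Il18 to Il1b were close between the groups, with mean log2 differences of 0.06 and -0.02. For Il33 to Il1f6 the mean log2 difference was -0.48, with the tdT positive library higher in 1 of 4 numbers and overlap of the groups. Between the IL-36 ligands there were 645, 517, 453 and 795 counts of Il1f6 per 1000 of Il1f9 in tdT positive libraries, against 569, 460, 476 and 379 in tdT negative libraries, which overlap.

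**Figure D3:**
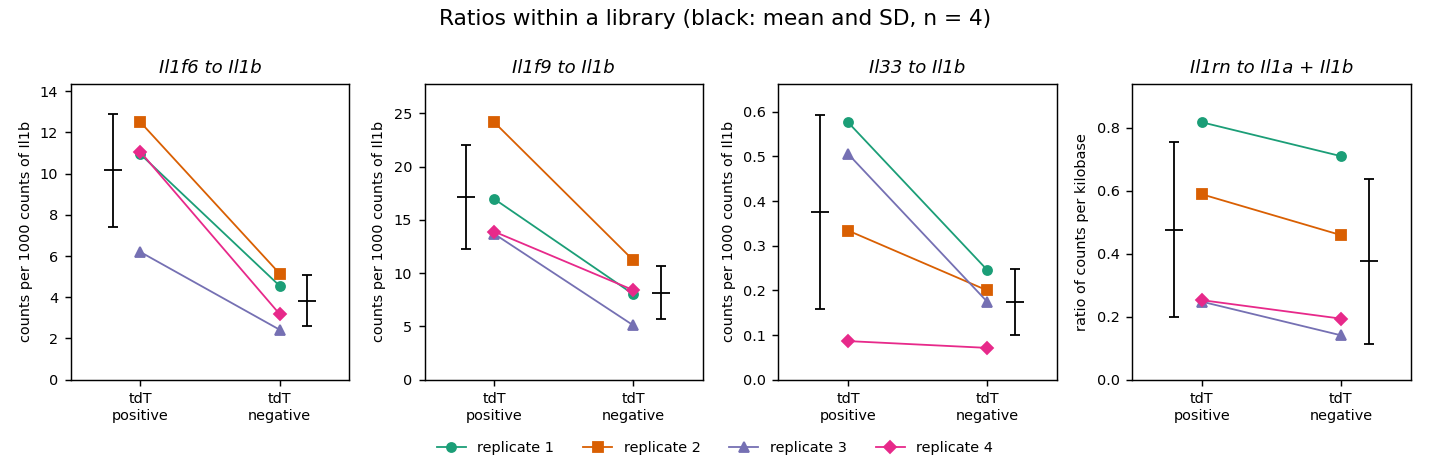
Within-library ratios, with tdT positive libraries on the left and tdT negative on the right of each panel: counts of Il1f6, Il1f9 and Il33 per 1000 counts of Il1b, and Il1rn over Il1a plus Il1b per kilobase. Lines join libraries of the same replicate number and black marks give the mean and SD (n = 4). The tdT positive end is the higher in every line, and the groups do not overlap for Il1f6 and Il1f9.

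The replicate number itself was tested with the group in the model. It is not the contrast that chose the genes. Their counts in these same libraries were already seen, however, so this is no independent test. Of the 7 genes, 6 differed between numbers, where 27.7% of all genes tested did (edgeR, adjusted p under 0.05). Il1a had the smallest p (adjusted p = 0.000998). The mean of its log2 CPM over the 2 libraries of a number spanned a 3.05-fold range, against 1.36-fold for the median gene tested. The values for Il1b were an adjusted p of 0.0101 and a 2.15-fold range on the same scale of mean log2 CPM, with the same numbers high. Il1rn ranged 1.76-fold (adjusted p = 0.0146), with replicates 1 and 2 high. Il18 ranged 1.95-fold (adjusted p = 0.0239), Il1f9 1.66-fold (adjusted p = 0.00357) and Il33 4.35-fold (adjusted p = 0.00700), a range that 2.97% of all genes tested exceeded. Il33 was highest in replicate 3 and lowest in replicate 4, a pattern unlike that of Il1a and Il1b, where both of these numbers were high. Il1f6 did not pass (adjusted p = 0.241). The labels do not say whether a number marks a mouse, a culture or a day, so these sources of the difference cannot be told apart.

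**Figure D4:**
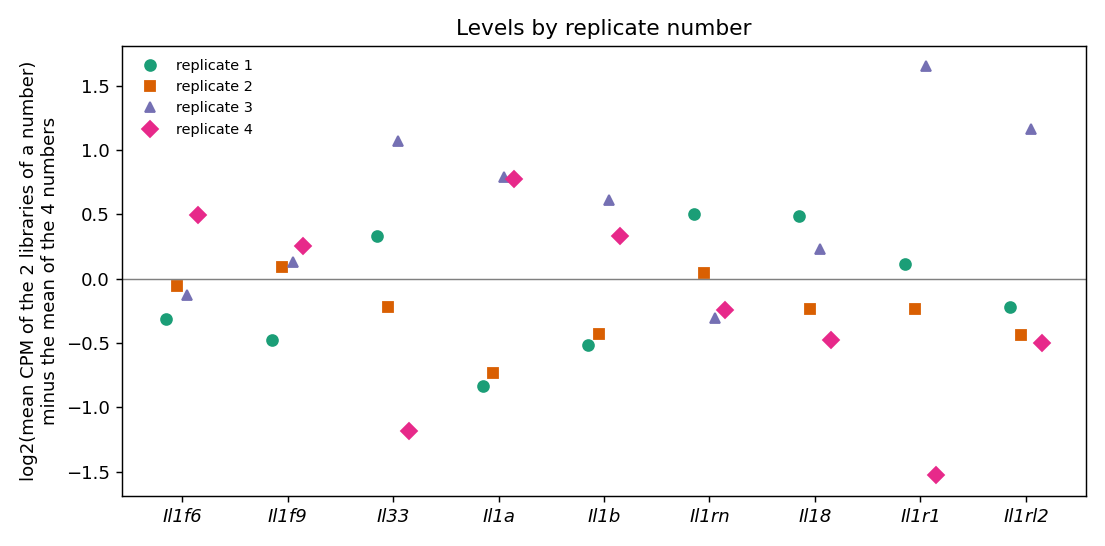
Level of the 7 ligand genes and the receptor genes Il1r1 and Il1rl2 by replicate number: log2 of the mean CPM of the tdT positive and the tdT negative library of a number, minus the mean over the 4 numbers. Replicates 3 and 4 are high for Il1a and Il1b, replicate 1 is high for Il1rn, and replicate 3 is high and replicate 4 low for Il33 and Il1r1.

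Profiles over the 8 libraries were compared by the root mean square difference of log2 CPM after subtracting each gene's mean, among the 9201 genes whose log2 CPM averaged at least 2. By this measure Il1f6 and Il1f9 differed by 0.31, Il1a and Il1b by 0.33 and Il1rn and Il18 by 0.41, whereas Il1f6 and Il1a differed by 0.96 and Il1f9 and Il1b by 0.66. Il33 differed from Il1f6 by 1.02 and from Il1f9 by 0.91, and its nearest gene among the 7 was Il18 (0.75). These distances hold the difference between the groups, which was known when the genes were chosen, so they are a description only. The gene closest to both IL-36 ligands was Rnf183, which encodes a ubiquitin ligase, at 0.22 from Il1f6 and 0.15 from Il1f9. It averaged 14.6 CPM over the tdT positive and 7.03 CPM over the tdT negative libraries. Next came Sap25 (0.30) and Il1f9 itself (0.31) for Il1f6, and for Il1f9 Tnfrsf21 (0.18), a death-domain receptor of the tumour necrosis factor family, and Neat1 (0.22), a nuclear non-coding RNA. Il1a was closest to the LPS-induced cytokine genes Osm and Il6 (both 0.21) and the neutrophil chemokine gene Cxcl2 (0.28). Closest to Il1b were Tyms (0.20), Plaur (0.22) and Osm (0.22), to Il1rn Rin2 (0.10), Pml and Rab43 (both 0.11), and to Il18 Pnp2 (0.13), Zfp992 and Zfp991 (both 0.14). Il33 had no gene closer than 0.33 (Adora3 and Bst1, with Styk1 at 0.34). With Pearson's correlation as the measure, 4 of the 21 nearest genes were shared, so these names depend on the measure.

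The receptor genes were tested, since they are no members of the chosen list, although the lists were also drawn up with earlier results of these data known. Of 8 listed, 6 were tested, 0 passed without the replicate number (edgeR; 2 at an unadjusted p under 0.05, 2 by DESeq2 and 0 by limma voom), and 4 passed with the block, 2 higher and 2 lower in tdT positive libraries. Of all genes tested, 0.0238% passed without the block and 15.8% with it, 8.03% higher and 7.81% lower. The 6 had a median blocked log2 fold change of -0.11, against 0.01 for all genes tested. By replicate number 4 of the 6 passed, against 27.7% of all genes.

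Il1rl1, the IL-33 receptor, fell in tdT positive macrophages. It had 0.0959, 0.0860, 0.0928 and 0.0980 CPM in tdT positive libraries 1 to 4, against 0.633, 1.53, 3.35 and 2.30 CPM in tdT negative libraries 1 to 4, from 20 counts in all against 447. Every tdT positive library was thus within a few counts of the floor and below every tdT negative one. The log2 fold change was -4.21 (SE 0.37, adjusted p = 0.00455) in the blocked fit and -4.36 (adjusted p = 0.0562) in the unblocked fit, and the blocked call held without each replicate number in turn. Il18rap, the accessory chain of the IL-18 receptor, also fell, with 0.729, 0.310, 0.487 and 0.278 CPM in tdT positive libraries, against 1.60, 1.96, 1.13 and 0.912 CPM in tdT negative libraries. Its log2 fold change was -1.66 (SE 0.29, adjusted p = 0.0147 with the block, 0.0752 without). Without replicate 2 or 3 the adjusted p was 0.0616 or 0.0581.

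Il1rl1 and Il18rap are also expressed by mast cells, basophils and lymphocytes, and several markers of other blood and stromal cells were also lower in tdT positive libraries. No marker of any list passed without the block, and with it 7.81% of all genes tested were lower and 8.03% higher. All 5 dendritic cell markers tested were lower with the block. Their list summed to 9.65 to 13.9 CPM in tdT positive and 31.2 to 61.5 CPM in tdT negative libraries, led by Fscn1. Flt3, Zbtb46, Xcr1 and Siglech of that list were under the filter on low counts. They had 4, 17, 23 and 2 counts in tdT positive libraries, against 7, 44, 26 and 8 in tdT negative libraries. Of 6 neutrophil markers tested, 4 were lower, among them S100a9 (0.713 CPM over the tdT positive and 102 CPM over the tdT negative libraries) and Ngp (0.473 CPM over the tdT positive and 39.7 CPM over the tdT negative libraries). The neutrophil list summed to 54.1 to 271 CPM over the tdT positive and 169 to 1476 CPM over the tdT negative libraries, with the highest mean for Mmp9, which did not pass (adjusted p = 0.800 with the block). Prtn3 was at 0 in tdT positive libraries against 150 counts in tdT negative libraries, and Elane and Retnlg were at 0 against 5 and 1 counts. Of 3 mast cell and basophil markers tested, 1 was lower (39.9 to 82.4 CPM over the tdT positive and 46.8 to 96.8 CPM over the tdT negative libraries, mostly Hdc, which macrophages also express), and the basophil protease gene Mcpt8 had 2 counts in tdT positive and 151 in tdT negative libraries, under the filter. Ms4a2 and Fcer1a were at 0 in tdT positive libraries and had 5 and 2 counts in tdT negative libraries. The stromal markers given beside Il33 are led by Col1a1, with 32.4 CPM over the tdT positive and 320 CPM over the tdT negative libraries. None of 5 endothelial markers passed (18.8 to 41.1 CPM over the tdT positive and 19.3 to 49.6 CPM over the tdT negative libraries, mostly Pecam1), nor did the 1 epithelial marker tested, Krt19, whose list summed to at most 0.447 CPM over the tdT positive and 1.82 CPM over the tdT negative libraries. Of 10 macrophage markers, 2 (Mrc1 and Mertk) were higher and none lower, and the list summed to 14394 to 18629 CPM over the tdT positive and 12172 to 21707 CPM over the tdT negative libraries. The part of other cells in the receptor differences was not tested.

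The 2 receptor genes that rose with the block were those of the IL-1 and IL-36 agonists. Il1r1 had 40.2, 31.0, 113 and 11.3 CPM in tdT positive libraries 1 to 4, against 24.4, 19.8, 75.0 and 9.43 CPM in tdT negative libraries 1 to 4. It was higher in each number although the groups overlapped widely, and replicate 3 was high and replicate 4 low in both. Its log2 fold change was 0.56 (SE 0.08, adjusted p = 0.0110 with the block, 0.768 without), and the adjusted p was 0.0722 and 0.0623 without replicates 2 and 3. Il1rl2 had 24.5, 20.4, 57.4 and 16.5 CPM in tdT positive libraries, against 14.8, 13.4, 45.1 and 16.0 CPM in tdT negative libraries, again with replicate 3 far above the rest. Its log2 fold change of 0.43 (SE 0.11, adjusted p = 0.0444 with the block, 0.759 without) did not hold as a call under DESeq2 size factors (0.0516), upper-quartile factors (0.0714) or library totals (0.145), nor without replicate 1, 2 or 3 (0.144, 0.217 and 0.139).

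Il1rap, the chain shared by these receptors, and Il1r2, a decoy receptor for IL-1, did not pass. Il1rap averaged 34.6 ± 7.52 CPM over the tdT positive and 35.8 ± 8.08 CPM over the tdT negative libraries (log2 fold change -0.05, adjusted p = 0.638 with the block), and Il1r2 averaged 0.549 ± 0.380 CPM over the tdT positive and 0.581 ± 0.303 CPM over the tdT negative libraries (log2 fold change -0.17, adjusted p = 0.718). Sigirr (22 counts in tdT positive and 61 in tdT negative libraries) and Il18r1 (4 and 1 counts) were under the filter on low counts. By replicate number Il1r1, Il1rl2, Il1rap and Il1r2 passed, and the arithmetic mean level of Il1r1 in the 4 numbers was 32.3, 25.4, 93.9 and 10.4 CPM.

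**Figure D5:**
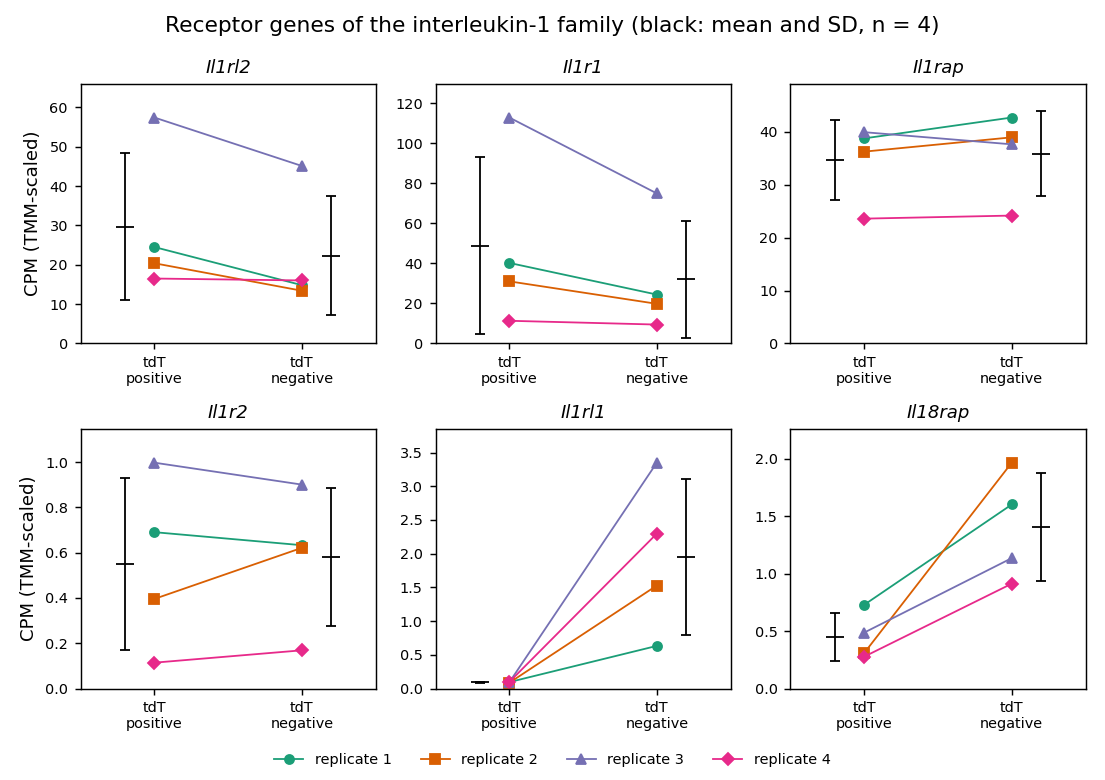
Level of the 6 receptor genes tested, in TMM-scaled CPM on linear axes from 0, with tdT positive libraries on the left and tdT negative on the right. Lines join libraries of the same replicate number and black marks give the mean and SD (n = 4). Il1rl1 and Il18rap are lower in all tdT positive libraries, and replicate 3 stands high in both groups for Il1r1 and Il1rl2.

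Other ligand genes of the family were hardly expressed. The IL-36 receptor antagonist gene Il1f5 had 7 counts over the tdT positive and 1 over the tdT negative libraries, and Il1f10 (IL-38) had 4 and 0, so neither passed the filter on low counts. Both lie between Il1f6 and Il1rn. Il1f8, the gene of IL-36β, was not analysed here.

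Genes that process and release these cytokines were mostly at like levels. Of 19 tested, 0 passed without the block (edgeR; 3 at an unadjusted p under 0.05, 2 by DESeq2 and 0 by limma voom) and 3 with it, 2 higher and 1 lower, a share near the 15.8% over all genes, with a median blocked log2 fold change of 0.05. P2rx7, the ATP-gated channel that triggers inflammasome activation, rose: it had 40.3, 43.4, 30.2 and 43.2 CPM in tdT positive libraries 1 to 4, against 26.5, 25.0, 21.1 and 17.2 CPM in tdT negative libraries 1 to 4. The groups did not overlap, and the log2 fold change was 0.81 (SE 0.13, adjusted p = 0.0122 with the block, 0.0590 without, and 0.0616 with the block but without replicate 2). Panx1, a membrane channel that releases ATP, rose by a log2 fold of 0.44 (adjusted p = 0.0114 with the block, 0.606 without), with an adjusted p of 0.0788 and 0.0535 without replicates 2 and 3. Prtn3, a neutrophil protease that can cleave these cytokines, had 0 counts in tdT positive and 150 in tdT negative libraries, at least 11.4-fold lower with 3 counts per library as the floor (adjusted p = 0.0110 with the block, 0.0613 without, and 0.0576 with the block but without replicate 2). The most abundant gene of the list, the cathepsin gene Ctss, averaged 1168 CPM over the tdT positive and 1251 CPM over the tdT negative libraries, and Casp1 and Nlrp3, the caspase and the sensor of the main inflammasome, did not pass (log2 fold change -0.10, adjusted p = 0.520, and 0.21, adjusted p = 0.0875, with the block).

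Of 22 genes listed for signalling downstream of these receptors, 0 passed without the block (edgeR; 0 at an unadjusted p under 0.05, 0 by DESeq2 and 0 by limma voom) and 1 with it, against 15.8% of all genes, with a median blocked log2 fold change of 0.05. It was Traf3ip2, which encodes Act1, known as an adaptor of the interleukin-17 receptor and not of the interleukin-1 family receptors. It rose by a log2 fold of 0.31 (adjusted p = 0.0176 with the block) and was no longer called with library totals (0.0710) or without replicate 1, 2 or 3 (0.0698, 0.0874 and 0.0659). The most abundant of the 22, the NF-kB inhibitor gene Nfkbia, averaged 712 CPM over the tdT positive and 671 CPM over the tdT negative libraries.

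Of 18 tested genes that IL-1 and LPS induce, 0 passed without the block (edgeR; 0 at an unadjusted p under 0.05, 0 by DESeq2 and 0 by limma voom), and 4 were higher and 1 lower with it, against 8.03% higher and 7.81% lower over all genes. Their median blocked log2 fold change was 0.08. The neutrophil chemokine genes Cxcl5 and Cxcl3 rose by log2 folds of 0.89 (adjusted p = 0.0157) and 0.66 (adjusted p = 0.0182), the siderophore-binding gene Lcn2 by 0.73 (adjusted p = 0.0223) and the nitric oxide synthase gene Nos2 by 0.48 (adjusted p = 0.0147). Il12b, a subunit of IL-12 and IL-23, fell by 0.29 (adjusted p = 0.0493). None of these 5 calls held without replicate 2 (adjusted p of 0.0705 to 0.125), and with library totals Cxcl3 (0.0519) and Il12b (0.0555) were not called. In the blocked fit without replicate 1, Cxcl3 (0.0562), Lcn2 (0.0893) and Il12b (0.128) were not called, while Cxcl5 and Nos2 were. Without replicate 3, Cxcl5 (0.0613), Lcn2 (0.0516), Nos2 (0.0591) and Il12b (0.0781) were not called, while Cxcl3 was. All 5 calls held without replicate 4. Saa3, an acute-phase gene and the most abundant of the list, averaged 28350 ± 2347 CPM over the tdT positive and 29553 ± 13454 CPM over the tdT negative libraries. By replicate number 13 of the 18 passed, against 27.7% of all genes.

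None of the neighbouring genes tested passed between the groups, but with so few genes nothing is read from this. Of all genes tested, 0.0238% passed without the block and 15.8% with it. Within 250 kb of the Il1f9 to Il1rn cluster 2 other genes were tested, Hnmt and Psd4, and within 250 kb of Il1a and Il1b 9 were, with 0 of the 11 passing in either edgeR fit (0 and 2 at an unadjusted p under 0.05 without and with the block, and 0 and 1 by DESeq2). Psd4, next to Il1rn, averaged 231 ± 24.7 CPM over the tdT positive and 202 ± 34.8 CPM over the tdT negative libraries (adjusted p = 0.0758 with the block). Il1bos and Gm14023, which overlap Il1b and Il1a on the opposite strand, averaged 1.51 and 0.650 CPM in tdT positive libraries, against 1.49 and 0.703 CPM in tdT negative libraries. These are small beside Il1b and Il1a, and the strand setting of the counting is not given, so reads of the overlapping genes may not be separated.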

How the data were processed

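Polyadenylated RNA of 8 macrophage samples was sequenced from stranded mRNA libraries made from 220 ng of total RNA, per the labels' protocols. The values are whole-number counts for each gene, made and deposited by the authors beside gene lengths. The submitters' processing notes name STAR and mm10, while the counting tool, its annotation and its strand setting are not given in those notes or the labels. A script read every column of counts; 8 genes without a symbol stayed in the library sizes.

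The 7 genes, the lists of receptors, processing, signalling, induced and marker genes, and all settings were chosen with earlier results of these data known. Genes were filtered (edgeR 4.0.16, minimum count 10, minimum total 15, leaving 12610), scaled by TMM factors (0.865 to 1.15) and compared with the edgeR quasi-likelihood test with the group as the only term. P-values were adjusted over all genes tested by the Benjamini-Hochberg method at 0.05. No call or p-value is given for the 7 genes between the groups. The replicate number was tested with the group in the model, and ratios used counts with 0.5 added before the logarithm.

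What a replicate number stands for is not in the labels, and p-values measure only the spread between the samples at hand, which may be technical. Deviations from the group means were correlated between same-numbered libraries by 0.63, 0.28, 0.62 and 0.56 for numbers 1 to 4. The highest correlation with a library of another number was 0.15, 0.23, -0.04 and 0.23, so number 2 stood out little. As all same-number values were above 0.1, the blocked fit, with the number as a term, is printed where it changes a call. No library repeated another (chi-square per degree of freedom 54.0 to 759 over genes with at least 20 counts). In simulated counts of 12507 genes, some genes were changed by log2 folds of 0.5, 1 and 2. The unblocked fit recovered 10.4%, 68.7% and 97.0% of these, with 0 false calls. The blocked fit recovered 67.2%, 98.5% and 100%, which are 45, 66 and 66 genes, with 20 false calls. False calls were thus a larger share of the blocked calls than the threshold of 0.05. Blocked calls, above all those with an adjusted p near 0.05, are to be read with that limit.

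The text names the 7 genes, other ligand genes and all receptor genes; from the other lists, genes that passed in either fit (at most 6 by p) and the most abundant one; the leading gene of each marker list; the 3 genes nearest in profile to each of the 7; and neighbours in the annotation (GENCODE M21, GRCm38). Casp1, Nlrp3, Adgre1, Mrc1, Mertk, S100a9, Ngp, Mcpt8 and marker genes at 0 are named outside this rule, after their values were seen. So are Flt3, Zbtb46, Xcr1 and Siglech. Alternatives were the block, size factors of DESeq2 1.42.0, library totals, upper-quartile factors, leaving the filter out or requiring 1 CPM in 4 libraries, the DESeq2 Wald test, limma 3.58.1 voom, thresholds of 0.01 and 0.1 and leaving out each library or number. The blocked alternatives for the pathway lists and for the log2 fold changes of the 7 genes under other scalings were chosen after seeing the data.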

Additional observations from a re-analysis of the deposited data

Results flagged for a closer look

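Among 48 groups of 4 values (24 genes in each group of libraries), 2 had a highest library separated from the other 3 by more of the group's range than Dixon's critical value for 4 values. Chance gives about 1 in 20 groups. Il18bp had 91.6 CPM in the tdT positive library of replicate 1, while the other tdT positive libraries had 60.5 to 64.6 CPM, and the tdT negative library of the same number was also the highest of its group. Il1rl2 had 45.1 CPM in the tdT negative library of replicate 3, while the other tdT negative libraries had 13.4 to 16.0 CPM, and the tdT positive library of the same number was the highest of its group too.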

How the results depend on the processing

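With the replicate block 1998 genes passed in place of 3 (1013 higher and 985 lower, and 422 higher and 996 lower with library totals), and 13 of the 66 pathway genes in place of 0. Without a filter 216 genes and 3 pathway genes passed, by the DESeq2 Wald test 921 and 4, and at an adjusted p under 0.1 524 and 4. Leaving out each library gave 2 to 456 genes and 0 to 2 pathway genes, the highest without tdT negative replicate 1. Without replicate numbers 1, 2, 3 and 4 the blocked fit passed 1023, 347, 355 and 2535 genes, and 8, 1, 4 and 16 pathway genes. By number 3489 genes passed, and 1012 at 0.01. The log2 fold change of Il1f9 was 0.88 with library totals (0.89 with the block). Over libraries left out it was 0.82 to 1.10 for Il1f9, -0.42 to 0.24 for Il1a, -0.33 to 0.19 for Il1b, 0.14 to 0.54 for Il1rn and 0.46 to 1.32 for Il33. Il33 was lowest without tdT positive replicate 3, and Il1rn highest without tdT negative replicate 1. The log2 difference of the ratio to Il1b was 0.56 to 1.54 for Il33 and 0.081 to 0.83 for Il1rn. Over the 16 alternatives to it Il1f6 stayed between 1.07 and 1.47. Unblocked values took both signs over libraries left out for Il18bp (-0.093 to 0.26), Il1r1 (-0.22 to 1.45), Il1rl2 (-0.12 to 1.01), Il1r2 (-0.54 to 0.26), Il1rap (-0.20 to 0.10), Cxcl5 (-0.17 to 1.55) and Il12b (-1.06 to 0.55). The causes were not tested. Of 492 values under an alternative, 416 kept their direction and call or stayed within the spread. Another 41 moved further, 23 newly passed and 12, all of genes tested between the groups, changed sign. Changes of sign in Il1a and Il1b are not among the 12 and were counted as moved further or within the spread. Over 16 alternatives Il1a was above 0 in 4 and Il1b in 2, against main values of -0.10 and -0.15. The median of all genes moved by less than 0.1 under any scaling (lowest -0.08, library totals). Depth limits Il33, Il1rl1 and Il18rap, which rest on few counts.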

Other observations

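Il1b, Il1rn and Il1a were ranked 5, 7 and 26 by mean CPM among all genes of the table. Il1b alone took 0.421% to 1.13% of the counts of a library. Ccl20, a chemokine gene of the list of induced genes, was under the filter on low counts, with 1 count over the tdT positive libraries and 69 over the tdT negative libraries, most of them in replicate 4. It is named after its values were seen and has no test.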
